A study of Mus musculus with 11 samples.

Results

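DNA methylation was examined across 10 mouse genes of phosphoinositide signalling. They were 9 genes of the phosphoinositide 3-kinase (PI3-kinase) family, Pik3c2a, Pik3c2b, Pik3ca, Pik3cb, Pik3cd, Pik3cg, Pik3r1, Pik3r2 and Pik3r5, and the phosphatase gene Inpp5d. The set was chosen by measured values, the fall of methylation in knockout against control LSK cells, which was largest in Pik3c2b. Values of that comparison are therefore given as a description, with no p-value, and a count of tiles past its threshold describes the choice and tests nothing. Of all genes in the RefSeq annotation, 23554 had enough data to be measured over their span, and these 10 are among them. Each gene was read from 1 kb before to 1 kb after its span on GRCm38, at C positions of CpG sites covered by at least 10 reads. The libraries listed 1559 such positions in the 10 genes. Of these, 1093 were listed in all 10 libraries with agreeing genotype labels, and 1054 fell into 71 tiles, windows of 1000 bp with at least 3 common positions, of 100150 such tiles genome-wide. Every gene had at least 1 tile: Pik3c2b and Pik3cd had 13 each, Pik3r1 12, Pik3r5 10, Pik3r2 7, Pik3cb 6, Inpp5d 5, Pik3ca and Pik3cg 2 each, and Pik3c2a 1.

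Class I PI3-kinases phosphorylate a membrane phosphoinositide at its 3-position and so recruit Akt and other signalling proteins to the membrane below cytokine, integrin and antigen receptors. Each class I enzyme pairs a catalytic with a regulatory subunit, class II enzymes act as single chains on other phosphoinositides, and the phosphatase Inpp5d (SHIP1) takes the signal away by converting the class I product. In blood cells the pathway is known for its part in growth, survival and migration, and loss of Inpp5d in mice is known to cause expansion of myeloid cells.

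The libraries came from bone marrow of C57BL/6 mice aged 12 months with a floxed Dnmt3a gene, which encodes a DNA methyltransferase that methylates unmethylated cytosines. Knockout animals (Dnmt3a f/f Mx1-Cre+) gave 2 libraries of GMP (178 and 179) and 3 of LSK (1327, 1333 and 1334). Control animals (Dnmt3a f/f Mx1-Cre-) gave 2 of GMP (346 and 349) and 3 of LSK (1326, 1330 and 1331). LSK cells (Lin- Sca1+ cKit+) are the marrow fraction that holds the stem cells, and GMP (Lin- Sca1- cKit+ CD34+ FcgR+) are granulocyte-macrophage progenitors. Mx1-Cre is driven by an interferon-responsive promoter, which is active in more than blood cells. Per the labels, recombination was induced by 5 injections of poly(I:C), and no untreated group is labelled. Another GMP library, 352, carries conflicting genotype labels and entered no comparison, and the libraries below are the other 10. Whether any of these libraries share an animal is not stated in the labels, and p-values therefore cover the spread among the libraries alone.

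The summed read coverage came to 95.4 to 109.7 M in GMP and 157.3 to 181.1 M in LSK libraries (M, 1e6 reads), so cell type and depth cannot be told apart. Member tiles had a mean coverage of 29.1 to 177 reads per position and library (median 81.0). Knockout LSK 1333 stood apart: 129024 C positions were listed in it and in no other LSK library, against 8117 to 26078 in each of the others. A run of 5 neighbouring positions in Dnmt3a, picked because no knockout LSK library listed it, was listed in full by every control library. Knockout GMP 178 listed 4 of these 5 positions and 179 listed all 5, each with at least 10 reads. Every knockout GMP value below comes from these libraries, and the part of these segment reads in the results was not tested. Chromosome Y positions numbered 1226 to 1326 in each GMP library and 1422 and 1470 in LSK knockout 1327 and control 1326, against 211 to 229 in the other 4 LSK libraries. No RNA was measured. As a description of the sorted cells, the granule genes Mpo and Ctsg were at 47.3% ± 0.302 and 52.1% ± 5.49 in control GMP (SD, n = 2), against 88.8% ± 0.848 and 90.4% ± 0.989 in control LSK (n = 3). Other markers differed less. Control GMP minus control LSK was -8.83 points in the granule gene Elane and -2.71 in Prtn3. In the stem cell genes Hlf, Mecom, Meis1 and Gata2 it was 1.24, 3.70, 1.32 and -0.420 points.

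RefSeq promoters, from 250 bases before to 50 after a start, were found for all 10 genes (14 windows, GRCm38.p6). Those of Pik3c2b and Pik3r1 are shown because the results turn on how far from, or how near to, these starts methylation differed. Both Pik3r1 starts are shown since they differ in CpG content. That of Inpp5d is shown as the start of the phosphatase gene, and it held no position common to all libraries. Capitals mark CG, the dinucleotide that can be methylated, and each sequence runs 5′ to 3′ on the strand of its gene.
Pik3c2b start, chr1:133045762-133046061, plus strand: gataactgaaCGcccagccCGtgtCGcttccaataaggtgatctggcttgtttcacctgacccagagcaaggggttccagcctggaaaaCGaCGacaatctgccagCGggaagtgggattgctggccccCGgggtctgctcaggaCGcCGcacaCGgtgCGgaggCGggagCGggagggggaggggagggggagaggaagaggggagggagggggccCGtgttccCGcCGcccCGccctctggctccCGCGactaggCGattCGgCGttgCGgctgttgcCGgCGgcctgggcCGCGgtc
Inpp5d start, chr1:87620062-87620361, plus strand: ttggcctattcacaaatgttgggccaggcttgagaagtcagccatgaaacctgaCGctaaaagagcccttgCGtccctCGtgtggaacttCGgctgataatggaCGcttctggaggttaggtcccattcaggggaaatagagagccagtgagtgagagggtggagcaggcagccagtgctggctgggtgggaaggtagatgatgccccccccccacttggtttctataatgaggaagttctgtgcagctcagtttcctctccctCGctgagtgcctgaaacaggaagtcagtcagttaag
Pik3r1 long-form start, chr13:101768168-101768467, minus strand: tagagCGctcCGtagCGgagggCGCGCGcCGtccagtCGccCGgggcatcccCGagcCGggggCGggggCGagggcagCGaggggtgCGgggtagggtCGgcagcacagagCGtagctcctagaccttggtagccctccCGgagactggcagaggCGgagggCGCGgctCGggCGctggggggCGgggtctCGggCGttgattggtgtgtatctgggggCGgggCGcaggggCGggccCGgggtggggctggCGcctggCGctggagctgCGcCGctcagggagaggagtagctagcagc
Pik3r1 internal start, chr13:101692581-101692880, minus strand: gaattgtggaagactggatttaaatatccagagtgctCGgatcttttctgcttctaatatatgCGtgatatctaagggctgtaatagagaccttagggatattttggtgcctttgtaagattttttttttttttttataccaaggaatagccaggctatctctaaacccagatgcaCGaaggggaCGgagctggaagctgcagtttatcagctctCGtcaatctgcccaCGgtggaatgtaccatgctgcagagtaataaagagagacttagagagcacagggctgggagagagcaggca
The Pik3c2b window held 27 CG and the long-form Pik3r1 window 34, whereas the Inpp5d and internal Pik3r1 windows held 6 each. Over all 32851 promoters in the RefSeq table the median was 7. CCGG, the site that MspI cuts and that reads the same on both strands, occurred 2 times in the Pik3c2b window and 4 times in the long-form Pik3r1 window. The Inpp5d and internal Pik3r1 windows had no CCGG, and 52.8% of all promoters of this length held it. Fragments begin at CCGG, so a window without it is read only from a neighbouring site. Of the 14 windows, 8 held positions common to all libraries, and their group means were 0% to 2.99%, the highest in Pik3ca.

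Pik3c2b encodes a class II PI3-kinase. Its tile on chromosome 1 from 133084001 to 133085000, inside the gene 38.5 kb past the start, had the lowest level in knockout LSK relative to control. The level, the share of methylated reads over its 5 positions, was 22.1%, 21.9% and 14.2% in knockout LSK 1327, 1333 and 1334, against 81.2%, 90.03% and 89.2% in control LSK 1326, 1330 and 1331. All 3 knockout libraries lay far below all 3 controls, a difference of -67.4 points, the largest fall among all 100150 tiles. The next were a Gnai2 tile, an inhibitory G-protein gene, with -61.7 points and a Runx3 tile, a Runt-family transcription factor gene, with -55.4. Without any single library the Pik3c2b difference was -70.2 to -64.8 points, and it was -68.6 without 1333. This difference chose the set and is not tested here.

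In GMP, which the choice did not use, the same Pik3c2b tile was at 51.7% and 68.2% in knockouts 178 and 179, against 92.6% and 94.0% in controls 346 and 349. Both knockouts were below both controls, and above every knockout LSK library. The means were 59.97% ± 11.7 in knockout and 93.3% ± 1.03 in control GMP (SD, n = 2 each), a difference of -33.3 points. The limma-moderated quasi-binomial test compares methylated and unmethylated reads across libraries, with a spread estimated over all 4 groups and borrowed across tiles. By this test the unadjusted p was 6.86e-05 and the Benjamini-Hochberg adjusted p over all tiles was 0.0501, so the tile missed the threshold of 0.05. Over the alternatives the adjusted p ranged from 0.0394 to 0.564, and it passed in 3 of 17. These were with at least 5 positions a tile (0.0495), without LSK knockout 1327 (0.0475) and without 1333 (0.0394). By fall of mean level in GMP it stood at rank 79 of all tiles. Whether the fall differed between GMP and LSK was not tested, because the LSK values chose the tile.

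The 5 positions of this Pik3c2b tile lie within 306 bp and differed among themselves. At the CpG read on both strands, the forward C (133084147) was at 10.9% and 62.5% in knockout GMP, against 100% in each control GMP library. It was at 12.5%, 8.33% and 8.42% in knockout LSK, against 94.5%, 93.3% and 91.2% in control LSK. The reverse C of the same CpG (133084148) was at 62.9% and 70.7% in knockout GMP, against 89.0% and 87.0% in control GMP. The forward C of this CpG thus lay far apart in the knockout GMP libraries, while the reverse C did not. This forward C had 16 to 95 reads in each library and the reverse C 77 to 154. Another forward position, 133084164, was also far apart, at 23.2% in knockout GMP 178 and 76.5% in 179. The forward position 133084055 went the other way, at 72.7% and 57.8%. The farthest position (133084361, reverse strand) stayed higher, at 76.9%, 80.5% and 81.1% in knockout LSK against 85.2%, 100% and 94.9% in control LSK, with 11 to 53 reads per library.

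**Figure D1:**
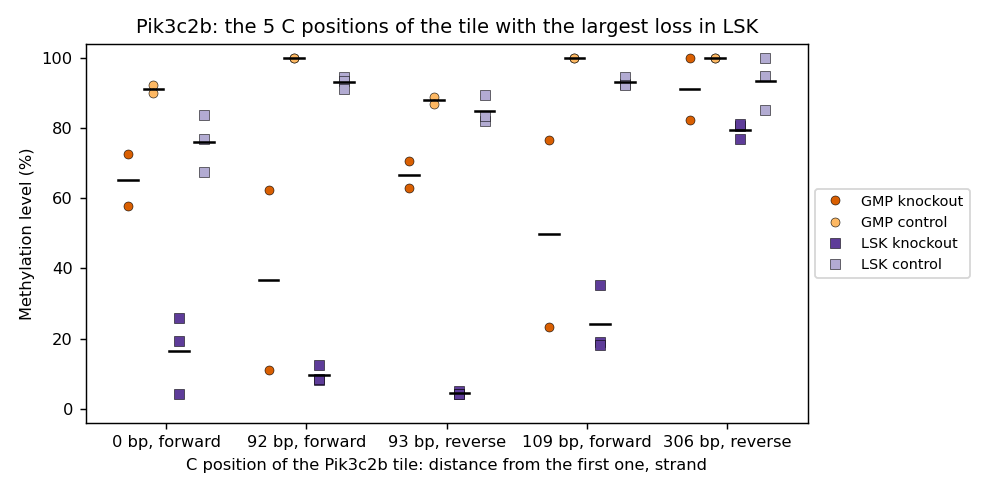
Methylation level (%, y axis) of the 5 C positions of the Pik3c2b tile, each placed by its distance in bp from the first position and its strand (x axis); 1 point per library, black bars are group means. At the first 4 positions all knockout LSK points lie at or below 35.2% and all control points at or above 67.5%, while at the last the knockout LSK points are 76.9% to 81.1%.

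Elsewhere in Pik3c2b, a tile 30.5 kb past the start (133076001 to 133077000, 3 positions) differed between control cell types. It was at 3.37% and 2.75% in control GMP, against 73.3%, 56.2% and 66.2% in control LSK 1326, 1330 and 1331. The groups were far apart, and the control with many Y positions, 1326, was the highest of the LSK controls. The difference, control GMP minus control LSK, was -62.2 points (limma-moderated quasi-binomial test, Benjamini-Hochberg adjusted p = 0.000238), and it passed in every one of 17 alternatives (adjusted p up to 0.0473). The setting of at least 5 positions a tile is not among the 17, because this tile holds 3. The comparison shares the control LSK libraries with the one that chose the set. Knockout GMP was at 0% and 3.28%, beside control GMP, and the GMP knockout difference was -1.42 points (adjusted p = 0.930). Knockout LSK lay between, at 35.8%, 22.2% and 20.7%, a difference of -39.0 points from control LSK.

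Another region of Pik3c2b, 57.5 kb past the start (133103001 to 133104000, 7 positions), was at 52.5%, 28.0% and 37.1% in knockout LSK, against 67.4%, 71.2% and 73.3% in control LSK. Knockout 1333 was the lowest; the difference was -31.4 points with it and -25.8 without it. In GMP the tile was at 35.9% and 49.1% in knockout, against 53.2% and 51.6% in control, a difference of -9.90 points (adjusted p = 0.779, limma-moderated test). The other tiles of the gene were at either end of the scale. The start tile (81 positions) did not exceed 0.257% in any library, and 7 body tiles averaged over 90% in control LSK. A tile at 25.5 kb was the exception, at 66.8% and 66.1% in knockout GMP against 71.6% and 71.8% in control GMP, and with -12.1 points in LSK. Its GMP difference was -5.22 points (adjusted p = 0.755).

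**Figure D2:**
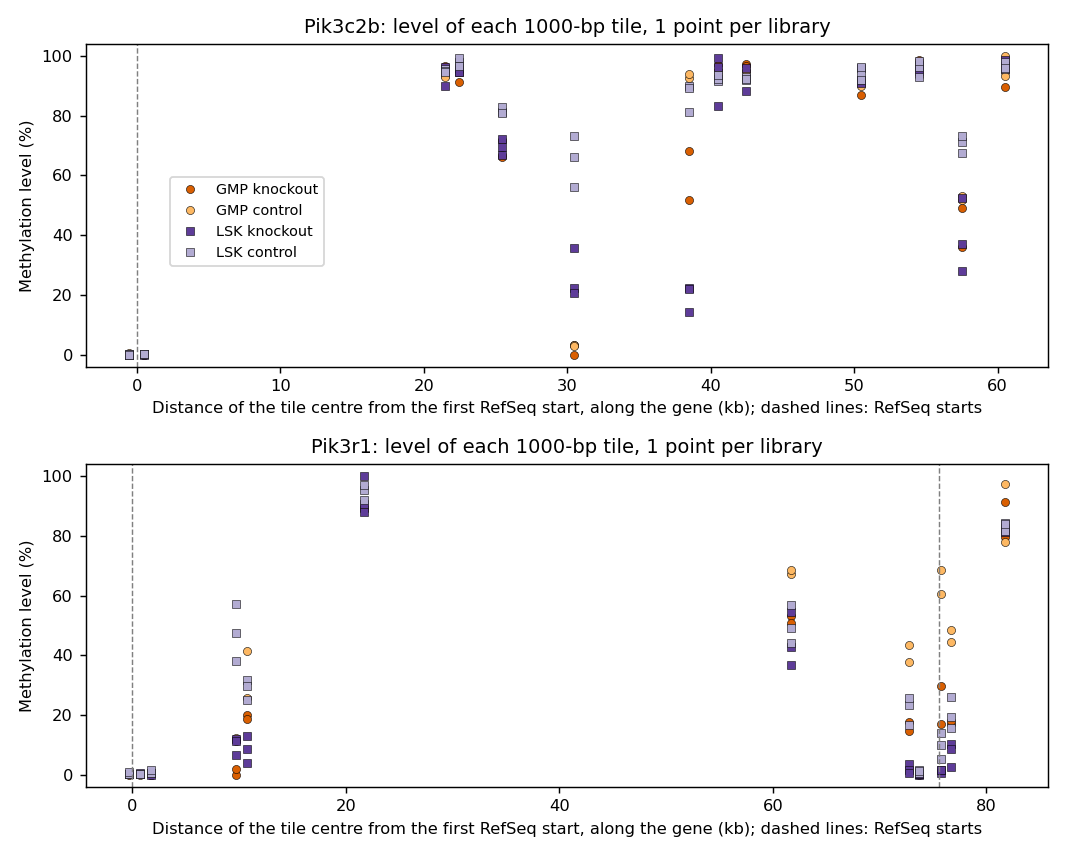
Methylation level (%, y axis) of every tested 1000-bp tile of Pik3c2b (top) and Pik3r1 (bottom) against the distance in kb of the tile centre from the first RefSeq start (x axis), with 1 point per library and dashed lines at RefSeq starts. In Pik3c2b the libraries spread widely at 30.5, 38.5 and 57.5 kb and crowd near 0% at the start; in Pik3r1 they spread near the internal start and 9.72 kb past the long-form start.

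Pik3r1 encodes the main regulatory subunit of class IA enzymes, and an internal start gives shorter forms of the same protein. The tile past the internal start (chromosome 13, 101692001 to 101693000) rests on 3 positions, 105 to 142 bp past that start, on the strand of the gene. It was at 16.9% and 29.6% in knockout GMP 178 and 179, against 60.6% and 68.5% in control GMP 346 and 349. In knockout LSK it was at 0.493%, 1.77% and 1.57%, against 5.45%, 9.95% and 14.1% in control LSK. Control GMP was thus the highest group, and both knockout groups lay below their controls without overlap.

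The Pik3r1 internal-start tile fell by 41.3 points in knockout GMP, to 23.3% ± 8.96 against 64.6% ± 5.62 in control (SD, n = 2 each; limma-moderated quasi-binomial test, Benjamini-Hochberg adjusted p = 0.0235). It was the 1 tile of 71 called lower in GMP, where a call needs an adjusted p under 0.05 and at least 20 points, and none was called higher. Over all tiles 0.0869% were called lower and 0.00999% higher. The call was lost in 8 of 16 alternatives: without moderation (adjusted p = 0.435), with only the GMP libraries (0.564), by limma on logit levels (0.164), with tiles moved by 500 bp (0.0772), and without GMP knockout 178 (0.246), GMP control 346 (0.124) or 349 (0.281) or LSK control 1330 (0.0541). The gene lies in a 5-Mb window of chromosome 13 in which 62 C positions were listed in both knockout GMP and in neither control GMP library, beside 2021 common ones. None of these 62 lay in Pik3r1, the LSK libraries showed no such window there, and the part of this difference in the result was not tested. With such windows left out, Pik3r1 is not measured.

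Control GMP against control LSK shares the control LSK libraries with the comparison that chose the set. By it, the same Pik3r1 tile was higher in control GMP than in control LSK. It averaged 64.6% ± 5.62 in control GMP (n = 2) and 9.84% ± 4.33 in control LSK (n = 3), a difference of 54.7 points (limma-moderated test, adjusted p = 0.000137) that passed in all 16 alternatives. With tiles moved by 500 bp it was 26.6 points over 5 positions (limma-moderated test, adjusted p = 0.0188). The settings of at least 5 positions and without windows of different listed positions do not measure the unmoved tile and are not among the 16. Within the tile the middle position, 108 bp past the start, was the most methylated in every control GMP library, at 91.2% and 97.0%, against 9.09%, 20.3% and 25.9% in control LSK. In knockout GMP it was at 37.6% and 57.0%, and in all 3 knockout LSK libraries at 0%. The position 142 bp past the start reached 2.38% and 7.53% in knockout GMP, against 29.9% and 41.6% in control GMP.

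Tiles beside the internal start of Pik3r1 had like values without passing. The next tile into the gene was at 17.1% and 18.1% in knockout GMP, against 44.4% and 48.4% in control GMP (difference -28.8 points, adjusted p = 0.160, limma-moderated test). The tile centred at -2.87 kb from the internal start was at 14.7% and 17.9% in knockout GMP, against 37.9% and 43.4% in control GMP (-24.4 points, adjusted p = 0.0677). Both had an adjusted p just under 0.05 without LSK knockout 1333, at 0.0469 and 0.0494. With tiles moved by 500 bp, the tile overlapping the one at -2.87 kb held 43 positions and had a difference of -1.58 points (adjusted p = 0.699). Between them lay a tile of 42 positions that did not exceed 1.68% in any library. A tile farther out, centred at -13.9 kb, was at 53.1% and 50.9% in knockout GMP, against 67.4% and 68.5% in control GMP (-16.0 points, adjusted p = 0.442).

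Near the long-form start of Pik3r1, another region ran the other way between cell types. The tile 9.72 kb past that start (101758001 to 101759000, 3 positions) was at 12.4% and 11.2% in control GMP, against 57.1%, 47.6% and 38.2% in control LSK. The comparison of control cell types shares the control LSK libraries with the one that chose the set. This tile also had the largest LSK fall of Pik3r1, so its p-value here is not independent of the choice. The control groups did not overlap, and the difference was -35.8 points (limma-moderated test, adjusted p = 0.00438). This call was lost in 5 of 16 alternatives: without moderation (0.105), by limma on logit levels (0.0774), with moved tiles (0.0704, difference -23.3 points) and without control GMP 346 (0.0543) or 349 (0.0959). Knockout GMP was at 0% and 1.93%, and the GMP knockout difference of -10.8 points did not pass (adjusted p = 0.351). In knockout LSK the tile was at 12.0%, 11.2% and 6.75%, a difference of -37.7 points from control LSK. The adjacent tile, at 10.7 kb, had -20.4 points in LSK and -14.1 in GMP. The start itself (63 positions) stayed at or below 1.002% in every library.

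**Figure D3:**
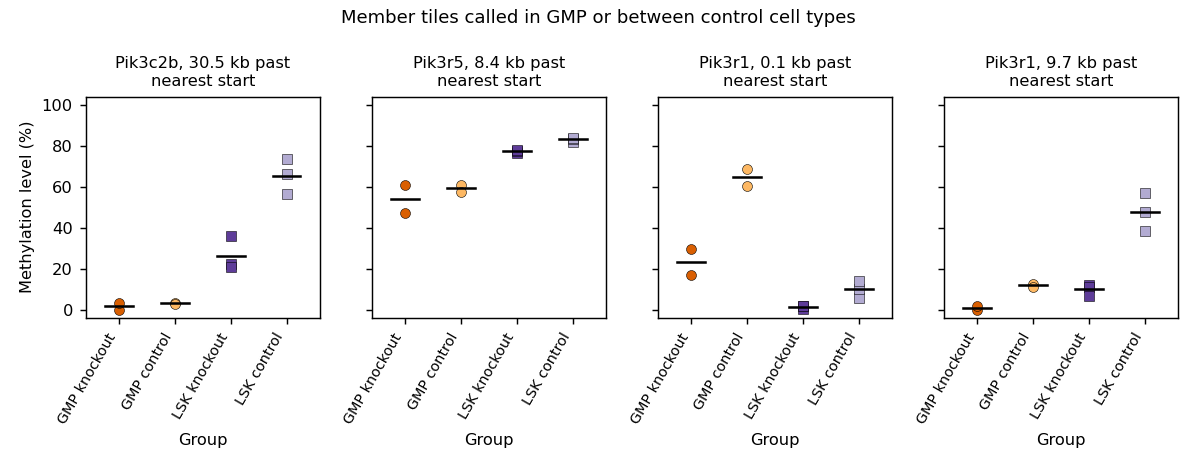
Methylation level (%, y axis) of the 4 tiles called in GMP or between control cell types, 1 point per library by group (x axis), with group means as black bars. The Pik3r1 tile 0.1 kb past the internal start is highest in control GMP, and the other 3 tiles are lower in control GMP than in control LSK.

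Pik3r5 encodes the regulatory subunit that links the Pik3cg enzyme to G-protein signals. Its tile 8.38 kb past the start (chromosome 11, 68440001 to 68441000, 5 positions) was at 60.8% and 57.7% in control GMP, against 82.0%, 83.5% and 83.8% in control LSK. Control GMP lay below all LSK controls, a difference of -23.8 points (limma-moderated test, adjusted p = 0.00878). This comparison, too, shares the control LSK libraries with the one that chose the set. Within the tile, positions 68440259 and 68440279 averaged 42.2% and 55.4% in control GMP, against 78.9% and 82.1% in control LSK. The other positions differed little, averaging 84.2% to 92.1% in control GMP and 88.1% to 91.7% in control LSK. The call was lost without moderation (0.105) and without control GMP 346 (0.0722) or 349 (0.117). Knockout GMP was at 46.9% and 60.7%, which overlapped control GMP (-5.42 points, adjusted p = 0.867), and knockout LSK was at 76.6% to 77.8%, a difference of -5.81 points from control LSK. The Pik3r5 start (39 positions) was at 0.264% to 2.59% in all libraries.

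Pik3cg encodes the class IB catalytic subunit, which is abundant in white blood cells. Its tile 3.97 kb past the nearest start (chromosome 12, 32204001 to 32205000, 3 positions) was at 40.9% and 49.1% in knockout GMP, against 57.3% and 63.9% in control GMP. Both knockouts were below both controls, with a difference of -15.6 points that did not pass (adjusted p = 0.667, limma-moderated test). In knockout LSK it was at 30.8%, 26.2% and 40.3%, against 47.2%, 68.4% and 45.5% in control LSK, a difference of -21.3 points. Control 1330 stood well above the other LSK controls, and without it the difference was -13.9 points. Pik3cg also lies in a window of different listed positions in GMP, with 51 found in the control libraries alone. The other Pik3cg tile stayed at or above 92.9% in every library, and no common position lay in its promoters.

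Pik3cd encodes the class IA catalytic subunit best known in white blood cells. The tile 0.588 kb past a CpG-dense internal RefSeq start (chromosome 4, 149675001 to 149676000, 14 positions) was at 7.89% and 7.27% in knockout GMP, against 14.6% and 18.6% in control GMP. In LSK it was at 1.79%, 2.69% and 0.183% in knockouts, against 6.25%, 6.75% and 5.09% in controls. Knockouts lay below controls in both cell types, with differences of -9.05 points in GMP (adjusted p = 0.380, limma-moderated test) and -4.48 points in LSK. Control GMP exceeded control LSK by 10.6 points (limma-moderated test, adjusted p = 0.0273), under the 20-point minimum. That comparison shares the control LSK libraries with the one that chose the set. The largest Pik3cd fall in LSK, -14.6 points, was 9.82 kb past a start, where knockout LSK was at 68.2%, 61.6% and 64.7% against 82.0%, 74.2% and 82.1% in control LSK. That tile was at 85.9% and 82.2% in knockout GMP, against 84.2% and 89.4% in control GMP (-2.72 points, adjusted p = 0.902).

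No tile of the remaining genes was called in any comparison. Inpp5d, the phosphatase, had its largest LSK fall 19.2 kb past the start, at -4.76 points, with 30.7% and 46.5% in knockout GMP against 43.9% and 50.3% in control GMP (-8.52 points, adjusted p = 0.831, limma-moderated test). The LSK difference was -8.13 points without knockout 1327, -1.76 without knockout 1333 and -1.38 without control 1331. In this tile, 19.2 kb past the start, the knockout and control libraries overlapped in both cell types. The Inpp5d start tile did not exceed 0.383%. Pik3ca and Pik3cb, the broadly expressed class IA catalytic subunits, and Pik3c2a, a class II enzyme, were read mostly at their starts. The start tile of Pik3ca reached at most 0.464%, that of Pik3cb 0.619% and that of Pik3c2a 0.763%. The tile just before the Pik3ca start was at 2.58% and 2.83% in knockout GMP, against 1.11% and 1.66% in control GMP, and at 1.43% to 2.57% in knockout LSK against 1.51% to 2.44% in control LSK. In the body of Pik3cb, a tile 29.7 kb past the start was at 52.5% and 70.2% in knockout GMP, against 56.8% and 70.2% in control GMP, and at 72.1% to 72.9% in knockout LSK against 73.5% to 74.9% in control LSK. Pik3r2, another class IA regulatory subunit, had its largest LSK fall of -2.94 points in a body tile at 81.3% to 93.7% in all libraries, beside a start at 0.387% to 2.42%. That fall was -4.70 points without knockout 1327, -0.123 without knockout 1333, -1.03 without control 1326 and -5.71 without control 1331. The start tiles of Pik3r2, Pik3cb and Pik3r5 also overlap the genes 2010320M18Rik, Gm2773 and Gm32046.

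Over the 71 tiles, the median difference of knockout from control GMP was -0.421 points, against -0.321 over all tiles. Both knockout GMP libraries lay below both controls in 18 tiles and above both in 13. Over all tiles 25.9% were lower and 11.2% higher in this way. The 18, 25.4% of 71, is near the background, and the 13, 18.3% of 71, is above it. Neither share was tested. At an unadjusted p under 0.05 there were 10 tiles (14.1%, against 8.18% of all tiles), and limma on logit levels called none. Over whole gene spans, 0 of the 10 genes passed between knockout and control GMP by the limma-moderated test, and 0 had an unadjusted p under 0.05. Of all spans 0.00425% were called, and limma on logit levels called 0 of the 10 too. Inpp5d had a span level of 53.1% and 59.7% in knockout GMP against 62.2% and 67.1% in control GMP (-8.23 points, adjusted p = 0.868). The Pik3cg span was at 63.4% and 63.1% in knockout GMP, against 73.5% and 70.9% in control GMP (-8.96 points, adjusted p = 0.860).

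In LSK, as a description of the choice, 6 of the 71 tiles lay past the threshold as lower, 3 in Pik3c2b and 3 in Pik3r1, and 0 as higher; of all tiles 0.994% were called lower and 0.00399% higher. All knockout LSK libraries lay below all controls in 21 of 71 tiles, beside 15.3% of all tiles, and above in 0, beside 3.33%. Without control LSK 1331, 3 tiles rather than 6 lay past the threshold. This comparison chose the set, so nothing is read from these counts. The comparison between control cell types shares the control LSK libraries with the one that chose the set. Of all tiles it called 0.809% lower and 0.0919% higher in GMP. Of the 71 member tiles, 3 were called lower in GMP (in Pik3c2b, Pik3r1 and Pik3r5) and 1 higher (in Pik3r1). Without control GMP 346 or 349 there were 2 such calls in all. The median difference was -0.267 points, against -0.0719 over all tiles. Over gene spans 0 of 10 passed between control cell types by the limma-moderated test (1 at an unadjusted p under 0.05), where 1.24% of all spans were called, and limma on logit levels also called 0.

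The tiles fell into 3 bands by their level in control LSK. In the middle band, 10 to 90%, lay 19 of 71 tiles. In GMP, which did not set the bands, the knockout mean was below the control mean in all 19, by a median difference of -8.52 points and a range of -33.3 to -1.42. Over all 26540 tiles of this band the knockout mean was the lower in 66.1%, and the median was -2.18 points. Both knockout GMP libraries were below both controls in 11 of the 19, beside 32.9% of all tiles of the band. In LSK all 3 were below all 3 in 12, beside 25.8%, from which nothing is read. Of the 19 tiles, 4 lie in Pik3c2b and 6 in Pik3r1, so they are not independent of each other. The genes were chosen by loss in knockout LSK, so the GMP counts of this band are a description too. The 31 tiles above 90% had a median of 0.00555 points in GMP and the 21 tiles below 10% a median of 0. The bands share control LSK libraries with the LSK difference, whose medians were -12.1, -1.02 and -0.132 points in the middle, high and low bands. The highest difference of a member tile, knockout minus control GMP, was 3.98 points.

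**Figure D4:**
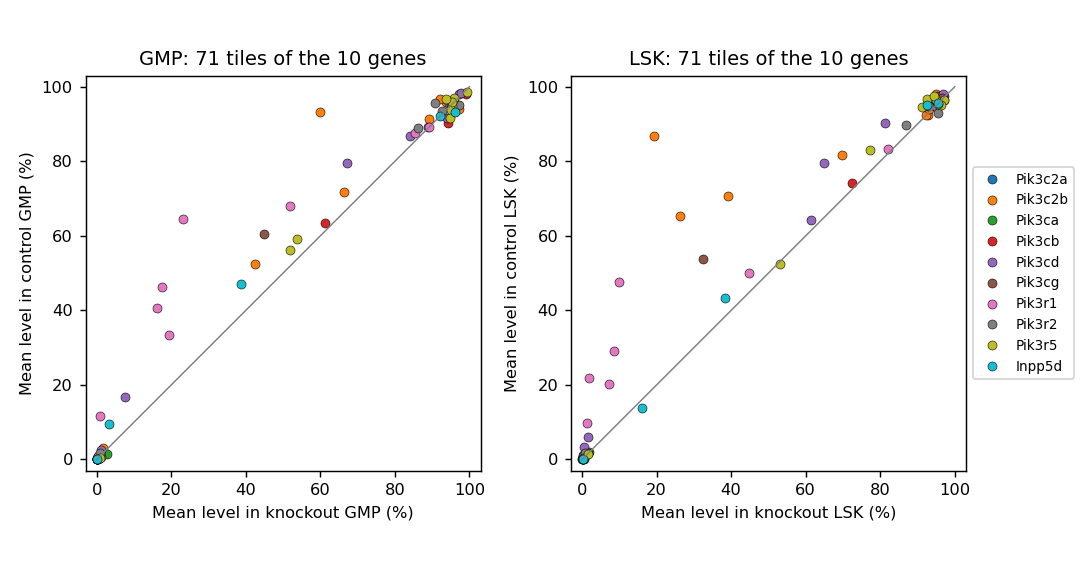
Mean methylation level (%) in knockout (x axis) against control (y axis) of the 71 tiles of the 10 genes, in GMP (left) and LSK (right), coloured by gene, with the line of equal levels. Tiles near 0% and 100% lie on the line, and the tiles farthest above it are Pik3r1 in GMP and Pik3c2b in LSK.

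Tiles most like that of Pik3c2b were sought by the root-mean-square difference of level over the 10 libraries, which includes the LSK values that chose it. The nearest 5 lay in Runx3 (9.05 points), Pitpnm2 (10.2, a phosphatidylinositol transfer protein gene), outside genes on chromosome 2 (10.3), in Zc3h3 (10.5, a zinc finger protein gene) and in Aldh18a1 (10.6, an enzyme of proline synthesis). In knockout GMP the Runx3 tile averaged 62.5%, against 84.6% in control GMP, and the Pitpnm2 tile 56.0%, against 91.7% in control GMP. These likenesses are a description.

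Among 39 other genes of the pathway, 224 tiles were tested. In GMP 0 were called by the limma-moderated test between knockout and control, beside 0.0969% of all tiles. A tile of Pik3ap1, an adaptor that recruits PI3-kinase in B cells, was at 56.3% and 59.96% in knockout GMP, against 82.6% and 81.1% in control GMP (-23.7 points, adjusted p = 0.0810). Between control cell types 6 tiles were called lower and 1 higher in GMP, beside the 0.809% and 0.0919% of all tiles given above. The lower ones lay in Plcg2 (2 tiles, a phospholipase C), Sgk3 (a kinase that binds phosphoinositides), the adaptors Gab1 and Gab2, and Irs2 (an insulin receptor substrate). In Plcg2 a tile was at 11.3% and 3.26% in control GMP, against 56.4%, 49.5% and 51.5% in control LSK (-45.2 points, adjusted p = 0.00227, limma-moderated test). The higher one was in Akt2, a kinase of the Akt family, at 73.9% and 57.1% in control GMP, against 37.7%, 42.5% and 25.0% in control LSK (30.5 points, adjusted p = 0.0251). The Akt2 tile was also among 3 called lower in knockout LSK, with Irs2 and Pik3ap1, beside 0.994% of all tiles. It averaged 31.1% ± 9.97 in knockout GMP and 65.5% ± 11.9 in control GMP (n = 2 each, -34.4 points, adjusted p = 0.187). No tile of Inppl1, Pdpk1, Mtor or Akt1 was called in any comparison.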

How the data were processed

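Enhanced reduced representation bisulfite sequencing reads DNA methylation near MspI sites: per the labels' protocols, genomic DNA was cut with MspI, fragments were size-selected and bisulfite-converted, and single-end reads were made on a HiSeq2500. Per the submitters' processing notes, Bismark was used with builds given as mm10 and GRCm38; no version is given. The deposited tables give, per the file headers, the coverage (a count of reads) of each C position and 2 percent columns, 1 for reads showing C and 1 for reads showing T. Positions under 10 reads are not listed in them, so a missing position is not a 0.

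Multiplying the coverage by each deposited percent gave methylated and unmethylated read numbers, all of them whole within the rounding of 3 decimals. The level of a tile or span is methylated over all reads. Genes and promoter sequences are from RefSeq tables of GRCm38.p6. Fixed 1000-bp tiles with at least 3 positions, and gene spans with 1-kb flanks and at least 5, listed in all 10 libraries, were tested by a quasi-binomial logistic model with 4 group means. The dispersion was moderated by limma 3.58.1 (squeezeVar in R 4.3.3, trended on log coverage; prior degrees of freedom 6.55 for tiles and 4.01 for spans) and kept at 1 or above. F-test p-values were adjusted by Benjamini-Hochberg over all 100150 tiles or 23554 spans. Calls needed an adjusted p under 0.05 and a difference of mean library levels of at least 20 points (tiles) or 10 (spans). Without molecular identifiers, read-based intervals cover counting error only. The tile test was first tried on simulated reads. Only tiles at high levels in control GMP were lowered, with 1 common spread between libraries for all tiles, and lower levels were not tried. Of those lowered in knockout GMP by 20, 30 and 50 points, the test called 1.49% (1 of 67), 10.4% (7 of 67) and 34.8% (23 of 66). A tile not called in GMP can thus still differ by such amounts.

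The genes, lists and tests were chosen with earlier results of these data known. Tiles named are those called in GMP or between control cell types, those holding a start, and the tile of each gene with the largest fall in knockout LSK. Further tiles beside these (the other LSK calls, neighbours in Pik3r1, and tiles of Pik3c2b, Pik3cd and Pik3cb at intermediate levels) and the single C positions were chosen after their values were seen. Alternatives were other moderation, limma on logit levels, coverage of at least 20, moved tiles, at least 5 positions, no flanks, windows left out and each library left out. The number of alternatives given for a tile leaves out the settings that do not measure it.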

Additional observations from a re-analysis of the deposited data

Results flagged for a closer look

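Library 352, which has conflicting genotype labels and entered no comparison, lay above both control GMP libraries in 4 of the named tiles, with the lower bound of its 95% Wilson interval above the higher control. In the tile just before the Pik3ca start it was at 3.797% (interval 2.62 to 5.47), against 1.11% and 1.66% in control GMP. In the Pik3cb body tile 52.7 kb past the start it was at 98.9% (interval 96.2 to 99.7), against 93.9% and 94.8%. In the start tiles of Pik3c2b and Pik3cb it was at 0.211% and 0.0912%, against at most 0.0452% and 0.0427% in control GMP. The intervals cover counting error only, and these differences of a few points or less were not tested.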

How the results depend on the processing

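No paired analysis was possible because the library numbers of the groups compared are not shared. Of the 71 member tiles, 1 was called between knockout and control GMP, and 0 without moderation, with only the 2 groups compared, by limma on logit levels, with tiles moved by 500 bp and without the windows of different listed positions; leaving out single libraries gave 0 to 4, the 4 without LSK knockout 1333 and the 0 without GMP 178, 346 or 349 or LSK control 1330. Between control cell types 4 were called, and 2 without moderation, 1 with at least 5 positions a tile, 2 without the windows and 2 to 5 without single libraries. In LSK, a description only since it chose the set, 6 lay past the threshold, and 3 without moderation. There were 3 with at least 5 positions, 3 without the windows, and 3 (without control 1331) to 6 without single libraries. With at least 5 positions 49 member tiles were tested, and without the windows 57. Tiles with fewer positions and, without the windows, those of Pik3r1 and Pik3cg were left out there rather than tested and lost. No gene span of the 10 was called under any setting tried. The Pik3c2b tile kept its GMP difference of -33.3 points, now past the threshold, with at least 5 positions, and had -41.6 to -25.1 points without single libraries; with a coverage of at least 20 it had too few positions. The other 7 tile differences that were recomputed under these alternatives, in GMP or between control cell types, kept their direction. Of 24 tiles with LSK differences recomputed without single libraries, 4 changed sign, all of them at or just before a start and within 1 point of 0: both Pik3ca tiles (-0.50 to 0.105 and -0.0977 to 0.0870), the long-form start of Pik3r1 (-0.347 to 0.0684) and the Pik3r5 start (-0.175 to 0.583).

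Over all tiles in GMP, 97 were called, 14 by limma on logit levels, 49 without the windows, 0 without moderation or with only the 2 groups, and 0 to 196 without single libraries. Between control cell types 902 became 234 without moderation, 412 with at least 5 positions and 485 to 1067 without single libraries, and in LSK the 995 lower and 4 higher calls became 252 in all without moderation and 541 with at least 5 positions. Over all spans in GMP 1 was called, and 0 to 2 under the alternatives; between control cell types 292 became 22 without moderation and 24 to 553 without single libraries. With at least 5 positions 57978 tiles were tested and without the windows 93870, so the counts of these settings cover fewer tiles. Many tiles rest on 3 to 5 positions, and GMP has 2 libraries a group. Apart from tiles left out of a setting, the causes of lost calls were not tested.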

Other observations

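Library 352 is given here by its values only. In the Pik3c2b tile 38.5 kb past the start it was at 30.4% (95% Wilson interval 26.4 to 34.8), below all 4 assigned GMP libraries. In the Pik3r1 internal-start tile it was at 3.79% (interval 2.23 to 6.38), and in the Pik3cg tile at 33.3% (interval 27.9 to 39.3), both again below all 4. In the Pik3cd tile 9.82 kb past a start it was at 79.7% (interval 74.9 to 83.8), over the 6 positions it listed. Of 65 member tiles in which it listed every position, it lay below both control GMP libraries in 36 (55.4%, beside 45.03% of 93609 such tiles genome-wide), below all 4 assigned GMP libraries in 24 (36.9%, beside 28.8%) and above all 4 in 7 (10.8%, beside 14.7%). Of the 5 Dnmt3a positions that no knockout LSK library listed, it listed 0.

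Gene-span methylation of other stem cell and granule genes was measured in the same libraries. Hlf, a stem cell transcription factor, was at 20.3% ± 1.10 in knockout GMP (SD, n = 2) and 30.6% ± 2.06 in control GMP (n = 2), and at 15.2% ± 0.959 in knockout LSK and 29.4% ± 3.20 in control LSK (n = 3 each). Gata2, a transcription factor of stem and progenitor cells, was at 9.21% ± 1.22 in knockout GMP and 11.0% ± 0.143 in control GMP, and at 5.46% ± 0.706 in knockout LSK and 11.4% ± 0.209 in control LSK. Mecom and Meis1, other stem cell transcription factors, were at 35.2% ± 2.11 and 4.87% ± 0.696 in knockout GMP and 36.1% ± 1.10 and 4.38% ± 1.48 in control GMP. In LSK they were at 32.5% ± 0.732 and 2.56% ± 0.239 in knockouts and 32.4% ± 0.456 and 3.05% ± 0.647 in controls. Elane and Prtn3, granule genes, were at 85.5% ± 1.80 and 5.15% ± 0.101 in control GMP, against 94.3% ± 1.57 and 7.87% ± 0.592 in control LSK. In the pathway list, the span of Dapp1, an adaptor that binds PI3-kinase products, was at 40.5% ± 0.482 in control GMP (n = 2) and 54.9% ± 3.89 in control LSK (n = 3), a difference of -14.4 points (limma-moderated test, adjusted p = 0.0343). It was the 1 of 39 spans called in that comparison, where 1.24% of all spans were called.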
